A study of Homo sapiens with 8 samples.

Results

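CD274 (PD-L1), PDCD1LG2 (PD-L2), CD80, CD86, CD276, PVR, LGALS9, HAVCR2, CD47 and CD40 are genes through which a leukemia cell meets T cells, NK cells or macrophages. They were taken by symbol from the Molm13 count table and by the same gene identifier from the THP1 table, and all 10 were found among the 57722 genes that the tables share. The data are polyA RNA-seq read counts of Molm13 and THP1, human AML lines of monocytic type. In each line, cells carried a control shRNA (shCtrl, genotype WT in the labels) or an shRNA against PRMT9 (shPRMT9, labeled as PRMT9 knockdown, KD), and all cells received doxycycline (Dox) to induce the hairpin. There were 4 groups of 2 libraries, 8 altogether. Each group is thus 1 line with 1 construct label, and no untreated group was analysed here. The library names of THP1 also carry the letters OCI, whereas the other labels give THP1, and the shPRMT9 numbers were taken to mark replicates although the study also numbers its hairpins. Nothing in the labels says that libraries came from separate cultures, so p-values measure only the spread between these libraries.

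T cells need a second signal beside the antigen receptor, which CD80 and CD86 on the presenting cell give through CD28, while CTLA-4 binds the same ligands and restrains the cell. PD-L1 and PD-L2 restrain T cells through PD-1, and interferons are known to raise PD-L1 on myeloid and tumor cells. PVR binds the activating receptor CD226 and the inhibitory receptor TIGIT, galectin-9 (LGALS9) is a ligand of TIM-3 (HAVCR2), CD47 gives phagocytes a signal against engulfment through SIRPA, and CD40 receives T cell help through CD40LG.

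Library totals ranged from 18720950 to 21241742 counts in Molm13 and from 25127517 to 27356870 in THP1. PRMT9 itself had 332 and 289 counts in Molm13 shCtrl and 41 and 56 in shPRMT9, and 317 and 352 against 60 and 68 counts in THP1. Of 10 myeloid markers, 8 in Molm13 and 9 in THP1 had over 100 counts in every library, and CD14 was low in Molm13 at 4 to 8 counts. The 5 T cell markers summed to at most 0.321 CPM (counts scaled to a common library total by edgeR's TMM method) in a Molm13 library and 1.75 CPM in a THP1 library, with CD2 and CD5 at 0 in all Molm13 libraries and CD3D and CD3E at 0 in all THP1 libraries.

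The promoters of these genes were read from RefSeq (GRCh38.p14, the build of the tables' coordinates) as 250 bases before to 50 bases after the start site. Of the 10 genes, 7 were matched, with 9 promoters, and PDCD1LG2, HAVCR2 and CD40 were not. Both strands were searched for the interferon-stimulated response element core GAAANNGAAA, the gamma-activated site TTCNNNGAA, and the NF-kB type site GGGNNNTTCC. These stood in 3.57%, 7.66% and 6.52% of all 35116 promoters of that length. Promoters of 3 of these genes, CD274, LGALS9 and CD86, held a match, and they are shown here. After PRMT9 KD, CD274 rose in THP1 and LGALS9 and CD86 in both lines, but so did genes without a match, such as CD47. Whether a match bears on these rises was not tested. Capitals mark the matches, and all letters read along the gene's own strand, which is the plus strand in each case.
CD274, chr9:5450292-5450591: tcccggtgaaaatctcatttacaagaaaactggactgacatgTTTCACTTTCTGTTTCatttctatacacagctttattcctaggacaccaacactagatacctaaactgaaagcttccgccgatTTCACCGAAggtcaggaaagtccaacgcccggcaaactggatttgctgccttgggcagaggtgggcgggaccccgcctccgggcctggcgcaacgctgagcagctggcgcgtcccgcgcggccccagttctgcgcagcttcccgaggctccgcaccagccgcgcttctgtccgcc
LGALS9, chr17:27630938-27631237: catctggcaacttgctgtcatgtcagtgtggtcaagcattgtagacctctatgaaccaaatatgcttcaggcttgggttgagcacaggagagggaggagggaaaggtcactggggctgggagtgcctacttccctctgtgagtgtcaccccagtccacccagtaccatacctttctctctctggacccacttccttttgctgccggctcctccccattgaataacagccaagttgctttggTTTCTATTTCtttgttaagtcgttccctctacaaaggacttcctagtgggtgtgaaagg
CD86, chr3:122077534-122077833: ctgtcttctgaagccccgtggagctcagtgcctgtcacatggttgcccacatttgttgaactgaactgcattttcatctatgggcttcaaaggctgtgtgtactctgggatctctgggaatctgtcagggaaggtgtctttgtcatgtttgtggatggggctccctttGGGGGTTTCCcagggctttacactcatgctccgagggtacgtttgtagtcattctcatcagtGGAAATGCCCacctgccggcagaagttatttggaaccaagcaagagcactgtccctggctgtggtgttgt
In CD274, a pair of overlapping interferon-stimulated cores, read here as the reverse complement TTTCNNTTTC, begins at -208 and -202 from the start site, and a gamma-activated site begins at -125. In LGALS9, such a core on the same strand begins at -9, in a promoter whose start site lies 1390 bases inside the gene as the tables give it. In CD86, NF-kB type sites begin at -82 and -20 of an internal promoter, 22418 bases from the gene's first base. The other 6 promoters, of CD47, CD80, CD276, PVR and CD86 (the outer one), held none of the 3 motifs in this window. A match is a description of the letters and not a measured site.

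PRMT9 KD came with higher RNA of most of these genes in both lines. In THP1, 8 of the 10 genes rose, from 1.31-fold for CD47 to 4.60-fold for HAVCR2, while CD276 and PVR did not pass the test. In Molm13, 6 of the 7 genes with enough counts to be tested rose, PVR fell to 0.820-fold, and CD274, PDCD1LG2 and CD80 had too few counts. CD86, LGALS9, HAVCR2, CD47 and CD40 were the genes that rose in both lines. Each line was tested alone with edgeR (quasi-likelihood F test, p-values adjusted by Benjamini-Hochberg across all tested genes), and a gene is said to rise or fall where the adjusted p (FDR) was below 0.05. At that limit, 33.4% of all 16446 tested genes rose in Molm13 and 33.5% fell, against 19.0% and 18.6% of 16294 in THP1. The filter on low counts was passed by CD40 in Molm13, and by PDCD1LG2 and CD80 in THP1, only through the shPRMT9 libraries, so these genes had to differ in order to be tested and their calls add no support to the counts.

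**Figure D1:**
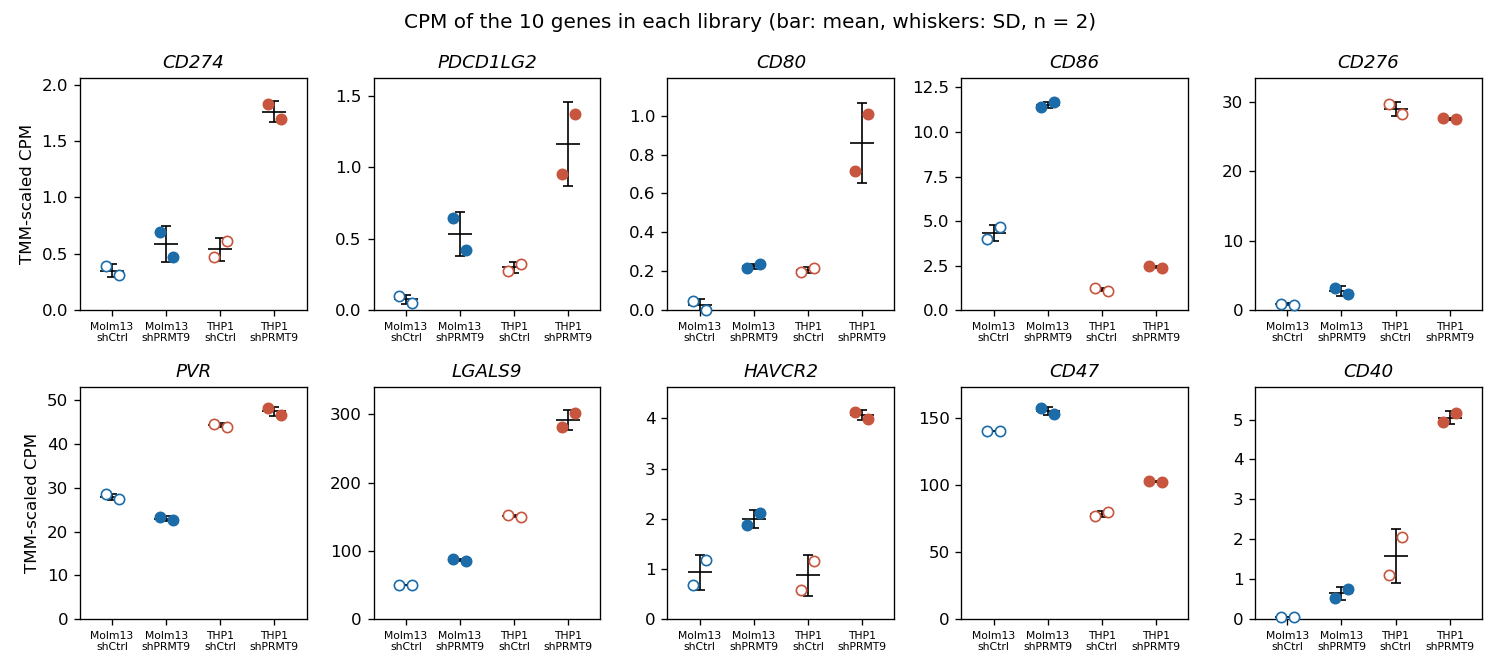
CPM scaled by edgeR's TMM method (vertical axis, linear from 0, own range in each panel) of the 10 genes in the 2 shCtrl libraries (open points) and 2 shPRMT9 libraries (filled points) of Molm13 (blue) and THP1 (red). Bars are means and whiskers are SD, n = 2. In THP1, CD274 lies at 0.469 and 0.612 CPM in shCtrl and at 1.83 and 1.69 CPM in shPRMT9, while CD276 and PVR stay within a narrow band.

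The PD-1 ligands lie side by side on chromosome 9. CD274 (ENSG00000120217, 5450503 to 5470566) had 12 and 17 counts in THP1 shCtrl and 46 and 42 in shPRMT9. Both KD libraries were above both controls, and the mean rose from 0.540 ± 0.101 to 1.76 ± 0.0956 CPM (SD, n = 2 each), or by 1.69 on the log2 scale (SE 0.32, adjusted p = 1.0e-04, edgeR). In Molm13, CD274 had 8 and 6 counts against 13 and 10, and the groups did not overlap, but the gene was too low for the test. The ratio of its summed counts, scaled for library size, was 1.64 with an exact 95% interval of 0.810 to 3.45 that covers counting error only. A change in CD274 was thus not detectable in Molm13 at this depth. Without the low-count filter its log2 fold change was 0.70 (adjusted p = 0.33, edgeR), and in the fit of all 8 libraries 0.70 (adjusted p = 0.25).

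PDCD1LG2 (ENSG00000197646, chromosome 9, 5510570 to 5571254), the second PD-1 ligand, had 7 and 9 counts in THP1 shCtrl and 24 and 34 in shPRMT9. The mean rose from 0.299 ± 0.0358 to 1.16 ± 0.295 CPM (SD, n = 2 each), with a log2 fold change of 1.94 (SE 0.41, adjusted p = 3.8e-04, edgeR). PDCD1LG2 passed the low-count filter in THP1 only through the shPRMT9 libraries, so a difference was a condition of this test. In Molm13, it had 2 and 1 counts in shCtrl and 12 and 9 in shPRMT9. The groups did not overlap, and the count ratio was 7.0 (exact 95% counting interval 2.09 to 36.7). Without the filter, edgeR gave an adjusted p of 0.0011 for PDCD1LG2 in Molm13.

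CD80 and CD86, the ligands of CD28 and CTLA-4, lie on chromosome 3. CD80 (ENSG00000121594, 119524293 to 119559602) was the lowest of the 10 genes in every group. In THP1 it had 5 and 6 counts in shCtrl against 18 and 25 in shPRMT9, a log2 fold change of 2.04 (SE 0.48, adjusted p = 0.0011, edgeR). There CD80 passed the low-count filter only through the shPRMT9 libraries, so a difference was a condition of this test. In Molm13, CD80 had 1 and 0 counts against 4 and 5, a ratio of 9.0 (exact 95% counting interval 1.25 to 394). Its adjusted p there was 0.076 without the filter and 0.027 in the fit of all 8 libraries (edgeR), so the call depended on the setting. Exons of CD80 share 798 bases, 24.9% of its exon length, with TIMMDC1 on the opposite strand, a gene of 1156 to 1505 counts in Molm13 and 2184 to 2408 in THP1. The strand setting of the counting is not given in the sources used here, so reads of the shared bases cannot be assigned with certainty. TIMMDC1 itself had a log2 fold change of -0.28 in Molm13 (adjusted p = 6.5e-07, edgeR) and 0.00 in THP1 (adjusted p = 0.997).

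CD86 (ENSG00000114013, 122055366 to 122121139) had 82 and 91 counts in Molm13 shCtrl and 213 and 248 in shPRMT9. Its mean rose from 4.33 ± 0.449 to 11.5 ± 0.188 CPM (SD, n = 2 each), which is 1.41 on the log2 scale (SE 0.13, adjusted p = 1.9e-13, edgeR). In THP1, where CD86 was lower, counts of 31 and 30 rose to 62 and 59. The log2 fold change was 1.08 (SE 0.24, adjusted p = 6.9e-04, edgeR), and the groups did not overlap in either line.

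LGALS9 (ENSG00000168961, chromosome 17, 27629798 to 27649560) encodes galectin-9. It had 1005 and 968 counts in Molm13 shCtrl against 1640 and 1815 in shPRMT9, and 3892 and 4150 against 7068 and 7500 in THP1. Every KD library was above the controls of its line. The mean rose from 49.4 ± 0.179 to 86.5 ± 1.69 CPM in Molm13 (log2 fold change 0.81, SE 0.046, adjusted p = 5.7e-20, edgeR) and from 150.7 ± 1.86 to 291.5 ± 15.1 CPM in THP1 (0.95, SE 0.037, adjusted p = 4.6e-18; SD, n = 2 each). LGALS9B and LGALS9C, near-identical copies of LGALS9, had at most 3 counts in any library, and how reads that match more than 1 copy were counted is not given in the sources used here.

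HAVCR2 (TIM-3; ENSG00000135077, chromosome 5, 157085832 to 157142869) is a receptor of galectin-9 that AML cells and monocytes also carry. In THP1 its counts of 15 and 32 in shCtrl stood against 104 and 99 in shPRMT9. The controls differed from each other by more than the KD libraries did, and both lay below them. The log2 fold change was 2.20 (SE 0.24, adjusted p = 2.6e-08, edgeR), the highest among the 10 genes in THP1. In Molm13, HAVCR2 had 14 and 23 counts against 35 and 45, a log2 fold change of 1.11 (SE 0.30, adjusted p = 0.0013, edgeR). This call was lost under DESeq2 (adjusted p = 0.0509) and without shCtrl replicate 1 of Molm13 (log2 fold change 0.76, adjusted p = 0.0512, edgeR).

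PVR (CD155; ENSG00000073008, chromosome 19, 44643798 to 44663583), the ligand of CD226 and TIGIT, was the only one of the 10 genes that fell. In Molm13 its counts were 581 and 538 in shCtrl and 436 and 481 in shPRMT9. Both KD libraries were lower, and the log2 fold change was -0.29 (SE 0.069, adjusted p = 3.3e-04, edgeR). In THP1, PVR had 1142 and 1222 counts against 1213 and 1158, or 44.3 ± 0.436 against 47.4 ± 1.08 CPM (SD, n = 2 each). There its log2 fold change of 0.10 (SE 0.054) did not pass (adjusted p = 0.16, edgeR). PVR shares 121 exon bases, 3.44% of its exon length, with CEACAM19 on the same strand, a gene of 3 to 93 counts.

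CD276 (B7-H3; ENSG00000103855, chromosome 15, 73683966 to 73714518) is a B7 family protein for which no T cell receptor is settled. In Molm13, its counts of 19 and 14 in shCtrl rose to 60 and 48 in shPRMT9, a log2 fold change of 1.71 (SE 0.28, adjusted p = 1.1e-06, edgeR). In THP1, where it was abundant, it had 759 and 784 counts against 697 and 682. The THP1 log2 fold change was -0.07 (SE 0.065, adjusted p = 0.46, edgeR), although both KD libraries lay below both controls after scaling.

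CD47 (ENSG00000196776, chromosome 3, 108043298 to 108091025), the ligand of SIRPA, changed least among the genes that rose. It had 2866 and 2744 counts in Molm13 shCtrl and 2949 and 3261 in shPRMT9, or 140.3 ± 0.0851 against 155.5 ± 3.13 CPM. In THP1, the counts were 1974 and 2224 against 2591 and 2540, or 78.6 ± 2.09 against 102.6 ± 0.416 CPM (SD, n = 2 each). CD47 thus had log2 fold changes of 0.15 (SE 0.033, adjusted p = 1.3e-04, edgeR) in Molm13 and 0.38 (SE 0.043, adjusted p = 2.6e-08) in THP1. With such close replicates, small changes passed the test.

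CD40 (ENSG00000101017, chromosome 20, 46118272 to 46129863), the TNF receptor family member that receives T cell help, had 28 and 57 counts in THP1 shCtrl and 124 and 128 in shPRMT9. Its log2 fold change there was 1.66 (SE 0.21, adjusted p = 2.0e-07, edgeR). In Molm13, CD40 had 1 count in each shCtrl library and 10 and 16 in the shPRMT9 libraries. The count ratio was 13.0 (exact 95% counting interval 3.25 to 113), and edgeR's adjusted p was 4.0e-05. CD40 passed the low-count filter in Molm13 only through the shPRMT9 libraries, so a difference was a condition of this test. A fitted fold change of so low a gene depends on the prior count and is not given.

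**Figure D2:**
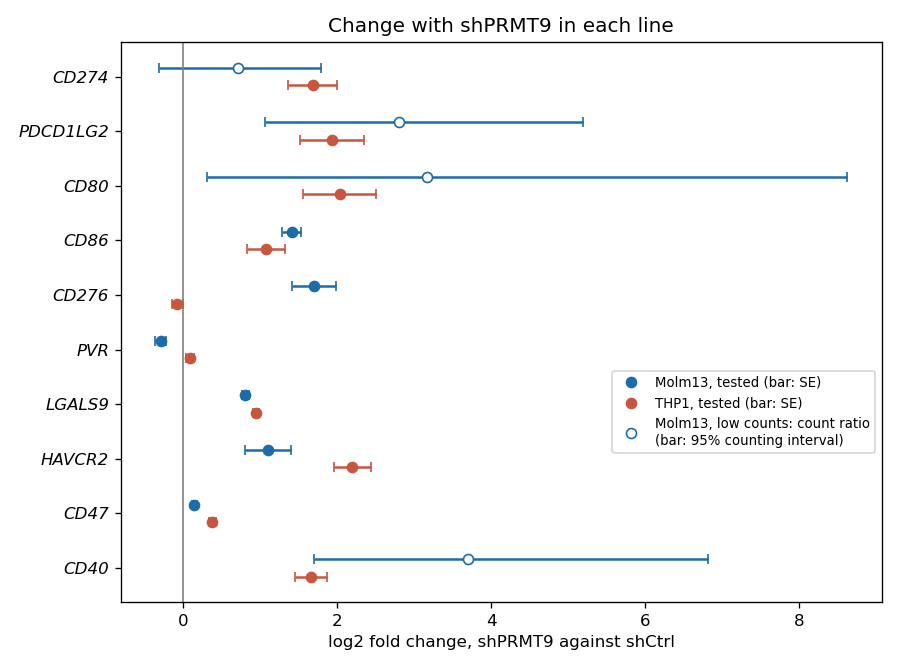
log2 fold change of shPRMT9 against shCtrl (horizontal axis) for each of the 10 genes (vertical axis) in Molm13 (blue) and THP1 (red). Filled points are edgeR estimates with SE, and open points are log2 ratios of summed counts with an exact 95% counting interval for genes with few Molm13 counts. The filled THP1 points of PDCD1LG2 and CD80 are of genes that passed the low-count filter only through the shPRMT9 libraries. The THP1 estimates of CD276 and PVR lie near 0, at -0.07 and 0.10, while CD276 in Molm13 lies at 1.71.

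The study's differentially expressed genes (DEGs) needed an RPKM (CPM per kilobase of exon) over 1 in some library, significance at the limit above and a change of over 1.5-fold in either direction. By this rule, CD86 and LGALS9 were DEGs in Molm13, and LGALS9, HAVCR2 and CD40 in THP1, all higher. Of all tested genes, 11.4% were higher DEGs and 11.3% lower DEGs in Molm13, against 3.83% and 2.39% in THP1. Without the RPKM minimum, 5 of the 10 genes met the rule in Molm13 and 7 in THP1. Both shPRMT9 libraries were above both shCtrl libraries for 6 of the 7 tested genes in Molm13 and for 9 of 10 in THP1, where the share among all tested genes was 41.2% and 33.0%. These counts include CD40 in Molm13 and PDCD1LG2 and CD80 in THP1, whose difference the filter required. Without them, 5 genes rose without overlap and PVR fell among 6 in Molm13, and in THP1 both shPRMT9 libraries were higher for 7 of 8, and 6 of 8 rose. The median log2 fold change was then 0.96 in Molm13 and 1.02 in THP1, against 1.11 and 1.37 with them and 0.00 over all tested genes in each line.

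Markers of cell type moved too. The 10 myeloid markers together ranged from 1293 to 1299 CPM in Molm13 shCtrl and from 1901 to 1907 CPM in shPRMT9, and from 2635 to 2680 CPM against 3938 to 4092 CPM in THP1. LYZ made up much of these sums, with means of 634 CPM in shCtrl and 1004 in shPRMT9 of Molm13, and 1886 and 3082 in THP1. Among all tested genes, 33.4% rose and 33.5% fell in Molm13, against 19.0% and 18.6% in THP1. Of the myeloid markers, 7 of 9 tested rose and 2 fell in Molm13, and 7 of 10 rose and 2 fell in THP1. Among those that rose were ITGAM (log2 values of 1.95 in Molm13 and 1.15 in THP1), CSF1R (2.06 and 1.03) and, in THP1, CD14 (2.40). MPO, a marker of immature myeloid cells, fell in both lines (-0.56 and -0.82). The other marker that fell was FCGR1A in Molm13 (-0.44) and CEBPA in THP1 (-0.12). FCGR1A had -0.01 in THP1 (adjusted p = 0.95, edgeR), and CEBPA rose in Molm13 (0.20). The 5 T cell markers ranged from 0.0511 to 0.0980 CPM in Molm13 shCtrl and from 0.141 to 0.321 CPM in shPRMT9, and from 0.864 to 1.05 CPM against 1.49 to 1.75 CPM in THP1, where CD5, of 10 to 33 counts, rose (1.51, adjusted p = 0.0020, edgeR). THP1 shCtrl replicate 2, with 10 counts of CD5, lay under the low-count filter. CD5 was thus tested only through the shPRMT9 libraries, and its call adds no support. The 5 B cell markers ranged from 42.7 to 42.9 CPM in Molm13 shCtrl and from 39.5 to 40.7 CPM in shPRMT9. In THP1 they ranged from 4.02 to 4.64 CPM against 12.6 to 14.1 CPM. There PAX5 rose (log2 fold change 2.03) and MS4A1 had at most 1 count. PAX5 made up most of these sums, with means of 42.4 and 39.1 CPM in Molm13 and 2.80 and 11.5 CPM in THP1. The 6 dendritic cell markers ranged from 109 to 118 CPM in Molm13 shCtrl and from 186 to 189 CPM in shPRMT9, nearly all of it FSCN1, and from 92.3 to 98.0 CPM against 104 to 105 CPM in THP1. XCR1 was at 0 in all Molm13 libraries and CLEC9A in all THP1 libraries. The part of these shifts in the values of the 10 genes was not tested. In such bulk samples, fewer cells of a type and less RNA per cell cannot be told apart.

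The lines differed in their response for 5 of the 10 genes, tested as the interaction of line and hairpin in 1 edgeR fit of all 8 libraries. The effect of shPRMT9 was higher in THP1 than in Molm13 for HAVCR2 (difference of log2 fold changes 1.11, SE 0.41, adjusted p = 0.023), PVR (0.40, SE 0.091, adjusted p = 1.2e-04), CD47 (0.25, SE 0.054, adjusted p = 5.6e-05) and LGALS9 (0.16, SE 0.058, adjusted p = 0.022). It was lower for CD276 (-1.76, SE 0.28, adjusted p = 4.8e-08). Among all 19288 genes tested, 22.8% were higher and 19.4% lower in THP1. The CD274 difference of 0.99 (SE 0.64, adjusted p = 0.23, edgeR) did not pass, so that a larger PD-L1 response in THP1 was not shown. CD86 (-0.32, adjusted p = 0.39) did not pass either, nor did PDCD1LG2 (adjusted p = 0.56), CD80 (0.65) and CD40 (0.079, edgeR), which had 0 to 2 counts in each Molm13 shCtrl library. The fitted difference of CD80 ranged from -3.41 to -0.076 as single libraries were left out, so its size is not known.

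LGALS9 lost this call under other scalings (RLE factors or library size alone), a stricter filter and DESeq2 (differences from 0.11 to 0.13), and when any 1 library other than THP1 shPRMT9 replicate 1 was left out (0.07 to 0.14, adjusted p from 0.101 to 0.449, edgeR). HAVCR2 lost it under DESeq2 (adjusted p = 0.119) and without Molm13 shCtrl replicate 2 (0.64, adjusted p = 0.401), Molm13 shPRMT9 replicate 1 (0.99, adjusted p = 0.0632) or THP1 shCtrl replicate 1 (0.68, adjusted p = 0.217, edgeR).

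Between the shCtrl groups, the lines differed in most of these genes, as they did in 15969 of all 19288 genes tested. Compared with Molm13 shCtrl in the fit of all 8 libraries, THP1 shCtrl had more CD276 (log2 difference 5.12, SE 0.15), LGALS9 (1.61, SE 0.042), and PVR (0.66, SE 0.062). It also had more PDCD1LG2 (7 and 9 counts against 2 and 1), CD80 (5 and 6 against 1 and 0) and CD40 (28 and 57 against 1 and 1), whose fitted differences depend on the prior count. That of CD80 moved between 1.98 and 5.31 as single libraries were left out. It had less CD86 (-1.91, SE 0.21) and CD47 (-0.83, SE 0.039). CD274 (0.63, adjusted p = 0.23) and HAVCR2 (-0.07, adjusted p = 0.85, edgeR) did not pass. These are 6 higher and 2 lower of 10, against 40.1% and 42.7% of all genes. PDCD1LG2 and CD80 lay under the low-count filter in the shCtrl libraries of both lines. They were thus tested only through shPRMT9 libraries, and their calls add no support to these counts. Without Molm13 shCtrl replicate 2 or THP1 shCtrl replicate 2 the calls of PDCD1LG2 (adjusted p = 0.14 and 0.092) and CD80 (0.16 and 0.066) were lost, as was that of PDCD1LG2 without Molm13 shCtrl replicate 1 (0.056, edgeR). The lines were deposited in separate tables, and line and handling cannot be told apart.

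**Figure D3:**
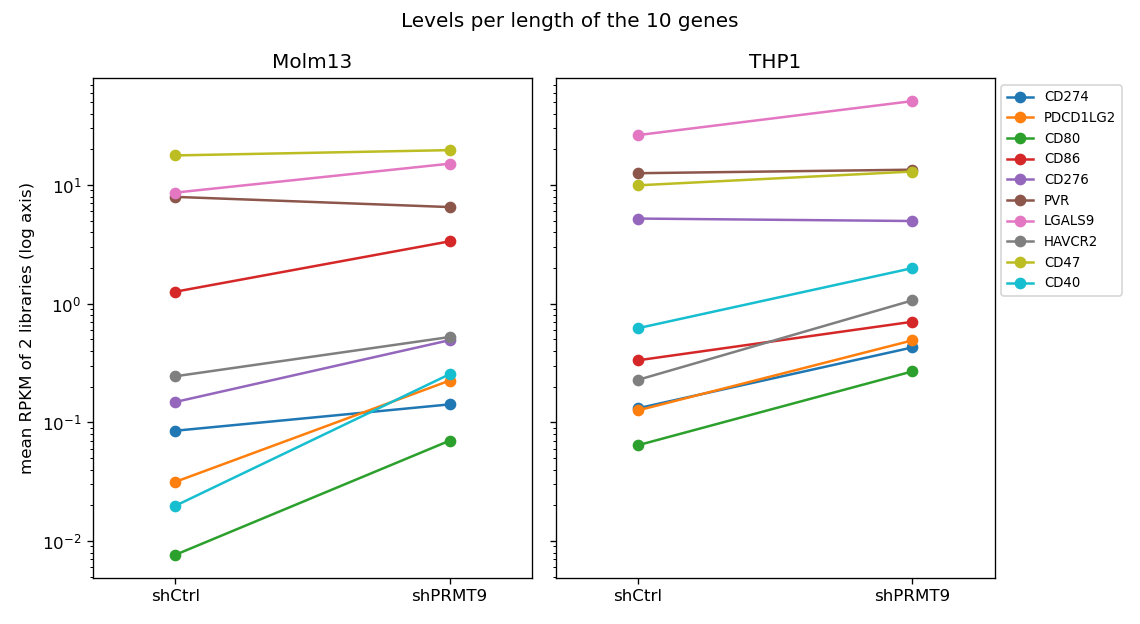
Mean RPKM of 2 libraries (vertical axis, log scale) of the 10 genes in shCtrl and shPRMT9 (horizontal axis) of Molm13 (left) and THP1 (right), with lines joining the groups of a gene. LGALS9 leads in THP1, with 26.4 RPKM in shCtrl and 51.0 in shPRMT9, and CD80 is lowest in all 4 groups.

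Per length, the genes fell into an abundant and a scarce set. In Molm13 shCtrl, CD47 had the highest level, at 17.8 ± 0.0108 RPKM (SD, n = 2), followed by LGALS9 (8.64), PVR (7.95) and CD86 (1.26), and the other 6 genes were below 0.25 RPKM, from HAVCR2 (0.245) through CD276 (0.149), CD274 (0.0850), PDCD1LG2 (0.0315) and CD40 (0.0198) to CD80 (0.00765). The last 3 rest on 0 to 2 counts per library. After shPRMT9 the first 4 places were kept, and HAVCR2 (0.524) and CD276 (0.493) overlapped between libraries, as did CD40 (0.255) and PDCD1LG2 (0.225). In THP1 shCtrl the order was LGALS9 (26.4 ± 0.326 RPKM; SD, n = 2), PVR (12.6), CD47 (9.95), CD276 (5.22), CD40 (0.622), CD86 (0.334), HAVCR2 (0.228), CD274 (0.132), PDCD1LG2 (0.126) and CD80 (0.0642), and CD274 and PDCD1LG2 overlapped. In THP1 shPRMT9, HAVCR2 (1.07 RPKM) stood above CD86 (0.705), and PDCD1LG2 (0.491) and CD274 (0.428) again overlapped. CD274, PDCD1LG2 and CD80 were under 1 RPKM in every group.

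Other genes of the same pathways were examined by list. The counts of this and the following lists stand beside shares of all tested genes. These were 33.4% higher and 33.5% lower in Molm13, and 19.0% and 18.6% in THP1. Of 15 other B7, nectin and butyrophilin genes, 7 rose and 2 fell among 12 tested in Molm13, and 6 rose and 2 fell among 13 in THP1. The butyrophilins BTN3A1 (1.09 in Molm13 and 0.70 in THP1, log2 fold changes here and below) and BTN3A3 (0.89 and 0.94), which act on gamma delta T cells, rose in both lines, as did C10orf54 (VISTA; 0.99 and 0.29). NCR3LG1 (B7-H6), a ligand of the NK receptor NKp30, fell in both lines (-0.60 and -0.18), as did NECTIN1 (-0.46 and -0.73). Of 8 TNF family costimulatory ligands with HVEM, all 5 tested rose in Molm13 and 4 of 6 in THP1. TNFSF9 (4-1BB ligand) rose in Molm13 (1.53) and had a log2 fold change of 0.25 in THP1 (adjusted p = 0.13, edgeR), and TNFRSF14 (HVEM) rose in both (1.04 and 0.64). TNFSF14 (LIGHT) also rose in both (0.86 and 1.10), and CD70, the ligand of CD27, rose by 0.99 in Molm13 and 0.20 in THP1, a call that was lost without THP1 shCtrl replicate 2 or THP1 shPRMT9 replicate 2.

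Among 5 adhesion type costimulators, ICAM1, which binds the integrin LFA-1, rose from 944 and 809 to 2078 and 2417 counts in Molm13 (log2 fold change 1.36) and from 83 and 76 to 454 and 448 counts in THP1 (2.60). Of 7 other galectins, 4 of 5 tested rose in Molm13, including LGALS3 (1.48), LGALS8 (0.83) and LGALS1 (0.77), and 3 of 4 rose and 1 fell in THP1, where LGALS3 rose by 0.70, LGALS1 by 0.24 and LGALS8 by 0.14, the last call being lost without THP1 shCtrl replicate 1, and LGALS12 fell by 1.16. The 4 in Molm13 include LGALS2, of 9 and 6 counts in shCtrl and 16 and 19 in shPRMT9. LGALS2 passed the low-count filter there only through the shPRMT9 libraries. The SIRP receptors split: SIRPA, the receptor of CD47, fell by 0.12 in Molm13 and rose by 0.40 in THP1, each passing the test, whereas SIRPB1 rose in Molm13 (0.28) and fell in THP1 (-0.61). Of 15 receptors that T and NK cells use, 1 was tested in Molm13 and 2 in THP1: CD226 fell in Molm13 (-0.77) and rose in THP1 (0.87), and TNFRSF9 rose in THP1 (2.26).

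Genes known to control PD-L1 were mixed. Of 9 tested in each line, 5 rose and 3 fell in Molm13, and 7 rose and 1 fell in THP1. Among all tested genes, 33.4% rose and 33.5% fell in Molm13, against 19.0% and 18.6% in THP1. IFNGR2, a chain of the interferon gamma receptor, rose by 0.83 (log2) in each, and IFNGR1, the other chain, rose by 0.16 in Molm13 and 0.67 in THP1. IRF1, a direct activator of CD274, had a log2 fold change of -0.07 in Molm13 (adjusted p = 0.25, edgeR) and rose by 0.45 in THP1. CMTM4, which stabilizes PD-L1 protein, fell in both (-0.63 and -0.74), and its relative CMTM6 fell in Molm13 (-0.23) and had -0.02 in THP1 (adjusted p = 0.66). Of 8 genes that act downstream of CD40, 4 of 7 tested rose and 2 fell in Molm13, and 5 of 8 rose and 1 fell in THP1. NFKB2 (2.89 and 2.04) and RELB (2.43 and 1.51), the pair of the noncanonical NF-kB pathway, rose in both lines. TRAF3, which holds that pathway back, fell in Molm13 (-0.52) and rose in THP1 (0.33), and MAP3K14, its kinase NIK, rose in both (0.59 and 1.08), although its Molm13 call was lost under DESeq2 (adjusted p = 0.083).

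**Figure D4:**
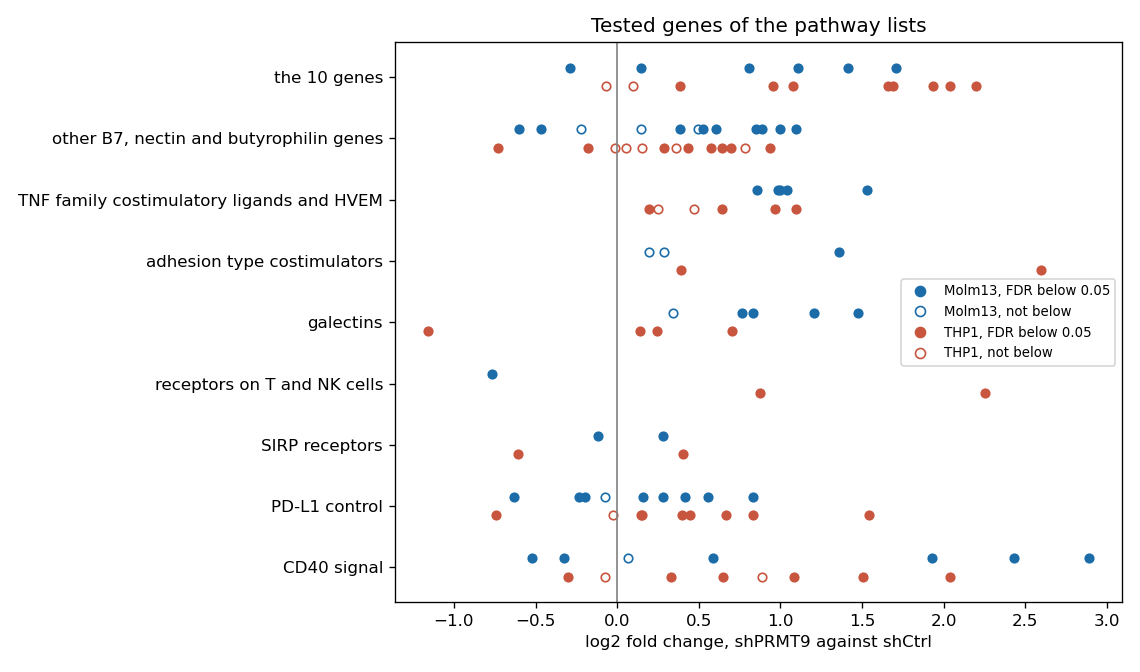
log2 fold change of shPRMT9 against shCtrl (horizontal axis) of the tested genes of each list (vertical axis) in Molm13 (blue) and THP1 (red), filled where the FDR was below 0.05. CD40 in Molm13 is left out, since it had 1 count in each shCtrl library, and ICAM1 in THP1 is the adhesion gene at 2.60. PDCD1LG2 and CD80 in THP1 are drawn, though they passed the low-count filter only through the shPRMT9 libraries.

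The nearest tested genes beside CD274 and PDCD1LG2 had smaller log2 fold changes than this pair in THP1. Of the 3 nearest tested genes before the pair, PLGRKT had -0.39 in Molm13 and 0.18 in THP1 (adjusted p = 0.12, edgeR), JAK2 had -0.20 and 0.15, and the pseudogene IGHEP2 had too few counts in Molm13 and 0.58 in THP1 (adjusted p = 0.41). After the pair, RIC1 had 0.13 and -0.24, ERMP1, the neighbor with the largest rise, rose by 0.70 and 0.25, and KIAA2026 fell by 0.31 and 0.30. The pair itself had 1.69 and 1.94 in THP1, whereas CD274 in Molm13 had 0.70 without the filter, as ERMP1 did. The value of PDCD1LG2 in THP1 is that of a gene tested only through its shPRMT9 libraries.

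Over the 8 libraries, the genes whose log2(CPM + 1) values were most like those of CD274 were CNEP1R1 (Pearson r = 0.993), USP18 (0.990), ACVR2A (0.987), GHRL (0.986) and HMOX1 (0.985). USP18, an interferon-induced protease, had 70, 57, 112 and 105 counts in Molm13 and 156, 179, 1271 and 1258 in THP1, shCtrl libraries first. Among the 10 genes, CD80 (0.958), PDCD1LG2 (0.927), CD40 (0.920), HAVCR2 (0.884) and LGALS9 (0.871) were most like CD274, followed by CD276 (0.645) and PVR (0.623). CD86 (-0.251) and CD47 (-0.275) had negative coefficients. Both were lower in THP1 than in Molm13, yet rose with shPRMT9 in each line. The coefficients thus mix the difference between lines with the response to shPRMT9, and CD276 did not rise in THP1. These coefficients describe 8 libraries that share 2 lines and 2 hairpins, and CD274 itself had 6 to 46 counts.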

How the data were processed

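Read counts of 8 polyA RNA-seq libraries were used: Molm13 and THP1, shCtrl or shPRMT9, 2 libraries each. The authors aligned reads with TopHat2 2.0.8 to hg38 and counted them with HTSeq 0.11.2, per the labels' processing notes, which also name edgeR 3.30.3. They deposited whole-number counts per gene, without normalization, in a table per line. The annotation release, strand setting and treatment of multiply mapped reads are not given in the sources used here. The THP1 table has no symbols or lengths, so these came from the Molm13 table by identifier.

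From the counts onward, R 4.3.3 with edgeR 4.0.16 was used: TMM scaling, filterByExpr (about 0.499 CPM in Molm13 and 0.392 in THP1, in at least 2 libraries) and quasi-likelihood F tests, with p-values adjusted by Benjamini-Hochberg across all tested genes. Each line was fitted alone, and the difference between lines and the shCtrl comparison came from a fit of all 8 libraries. DEGs followed the study's limits, with its upper fold limit read as above 1.5. SE is the absolute log2 fold change over the square root of F. RPKM used the exon lengths. Count ratios carry exact 95% intervals, for counting error only. Replicates differed by more than counting noise (chi-square per gene 1.35 to 2.17).

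The 10 genes and the lists were chosen with earlier results of these data known. Named are these 10 genes, PRMT9, up to 3 rises and 3 falls per list and line among DEGs with a mean of at least 20 counts and no overlap, the 3 nearest tested genes on either side of the PD-1 ligand genes, and the 5 genes most like CD274. A gene chosen in this way is left out here. SIRPA, CD226, TNFRSF9, LGALS2, LGALS12, CD5, LYZ, FCGR1A, CEBPA, IRF1, CMTM6, TRAF3 and the genes that overlap CD80, HAVCR2 or PVR or resemble LGALS9 were named after their values were seen, as were values in the other line. The test was checked on simulated counts. Alternatives were other scalings, filters, DESeq2 1.42.0, a replicate block, fitting both lines together and dropping each library in turn.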

Additional observations from a re-analysis of the deposited data

Results flagged for a closer look

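Each of 5 genes of the 10 responded to shPRMT9 to a different degree in THP1 than in Molm13 by the interaction test in edgeR with Benjamini-Hochberg adjustment. Of all 19288 genes tested, 22.8% passed with a higher and 19.4% with a lower effect in THP1, so such differences were common. The difference in log2 fold change was -1.76 for CD276, which rose in Molm13 from 19 and 14 counts and had 759 and 784 counts in THP1 shCtrl. It was 0.40 for PVR, which fell in Molm13, 1.11 for HAVCR2, 0.25 for CD47 and 0.16 for LGALS9. CD276, PVR and CD47 kept the call in all alternatives run (adjusted p at most 0.013 with edgeR or DESeq2), and the other 2 did not.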

How the results depend on the processing

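Of the values of the 10 genes, the directions of shPRMT9 against shCtrl in each line and of the difference between lines held in every alternative run. The shCtrl difference of HAVCR2 turned, to 0.37 without Molm13 shCtrl replicate 2 and 0.34 without THP1 shCtrl replicate 1, and ranged from -0.64 to 0.37 over the libraries left out. IGHEP2 in THP1 ranged from -0.043 (without shCtrl replicate 1) to 1.81 (without shCtrl replicate 2). At a fold limit of 2, DEGs numbered 1302 in Molm13 (3744 at 1.5) and 400 in THP1 (1013), and 1 of the 10 genes was a DEG in Molm13; without the RPKM minimum THP1 had 1544 DEGs, and 5 and 7 of the 10 genes were DEGs. With at least 50 counts in 2 libraries, 4 of the 10 genes were tested and 3 rose in Molm13, and 5 rose in THP1; fewer genes were tested there. Under DESeq2, 2 genes responded more in THP1 (4 by edgeR), and DESeq2 gave no adjusted p for CD80 in THP1 or for its difference between lines.

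Leaving out 1 library at a time, genes called ranged from 9825 to 10414 in Molm13 (11008 with all), 5083 to 5549 in THP1 (6127), 7332 to 7839 for the difference (8142) and 15574 to 16623 between the shCtrl groups (15969), with 3624 to 3746 DEGs in Molm13 and 987 to 1034 in THP1. Of the 10 genes, 6 to 7 rose in Molm13 and 8 in THP1, 2 to 4 responded more and 1 to 2 less in THP1, and 4 to 6 were higher in THP1 shCtrl. The difference for CD40 passed without Molm13 shPRMT9 replicate 1 (adjusted p = 0.0495) or THP1 shCtrl replicate 1 (0.0187, edgeR). The cause was not tested.

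Deviations of same-numbered libraries did not run together (r = -0.0764 in Molm13 and -0.0139 in THP1), so the numbers were not taken as pairs. With the replicate number as a block, 10855 genes were called in Molm13, 6054 in THP1, 7961 for the difference and 15893 between shCtrl groups, and the counts of the 10 genes that rose or fell were as without it. Depth limited CD274, PDCD1LG2, CD80 and CD40 in Molm13, each at 16 counts or fewer per library.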
